A study of Mus musculus with 14 samples.

Results

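Hearts of mouse embryos without a working copy of Irx5 (Irx5-/-, 3 arrays) were compared with hearts that kept 1 working copy (Irx5+/-, 3 arrays), which the series takes as its reference. All samples were heart tissue at E12.5, an embryonic day at midgestation, the groups were read from the sample titles, and the 6 arrays are part of a series of 14. The other 8 arrays come from hearts that also lack Irx3, 4 of genotype Irx3-/-;Irx5+/- and 4 of genotype Irx3-/-;Irx5-/-. Every group carries at least 1 mutant copy of Irx5, so the comparison is about losing the remaining copy, and no wild-type heart was among the arrays used here. The labels give neither the strain nor the kind of mutant allele, and do not say which regions of the heart were taken. They do not say whether each array is its own embryo or a pool, so the p-values measure the spread between these samples, part of which may be technical. By Xist and Y-linked signals both sexes occurred in each of the 4 groups, so the arrays of a group did not all come from 1 embryo. RNA (1 ng per sample) was amplified and hybridised to Affymetrix Mouse Gene 1.0 ST arrays, on which each probe set gives 1 value per sample. The values are log2 signals after RMA, a method that corrects background and normalizes all arrays together. A difference of 1 is therefore a fold of 2. Of 28763 probe sets, the 21776 with exactly 1 gene symbol entered the comparison, and they represent 19931 genes.

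Iroquois genes encode homeodomain transcription factors and lie in the mouse genome in a pair of clusters, one with Irx3, Irx5 and Irx6 on chromosome 8 and one with Irx1, Irx2 and Irx4 on chromosome 13. In the adult mouse ventricle, Irx5 forms a gradient across the wall, and together with the muscle-specific cofactor Smyd1 it represses Kcnd2, the potassium channel gene behind the transient outward current. Irx3 is known for the ventricular conduction system, where it raises Gja5 (connexin 40) and represses Gja1 (connexin 43). At midgestation the heart consists of muscle, an inner lining of endocardium with the vessel endothelium, the epicardium on its surface and the mesenchyme of the endocardial cushions, from which the valves form.

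Heart muscle markers were bright in all 6 arrays. Actc1, cardiac actin, read 12.85 to 13.73 and Tnnt2, cardiac troponin T, 12.85 to 13.71 over the 6 arrays, with array medians of 7.89 to 7.99. Markers of liver and lung read low in all 6 arrays (Alb 6.13 to 6.44, Sftpc 6.09 to 6.53), although brightness also depends on the probe sequence. The arrays correlated with each other at 0.962 to 0.987. By Xist and Y-linked signals, the Irx5+/- group held 2 female and 1 male samples and the Irx5-/- group 1 female and 2 male samples. Muscle genes varied within both groups. The mean over 34 sarcomere genes, relative to the mean of the 6 arrays, was 0.37, -0.34 and -1.24 in Irx5+/- replicates 1, 2 and 3 and 0.08, 1.14 and -0.004 in Irx5-/- replicates 1, 2 and 3. Irx5+/- replicate 3 and Irx5-/- replicate 2 thus stood at opposite ends, and the main counts are given with and without both arrays, a choice made after seeing the data. Leaving both out shrinks the sarcomere difference by construction. It also leaves only female samples in Irx5+/- and only male samples in Irx5-/-. In the values without both arrays, genotype and sex therefore cannot be told apart.

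Of the arrays outside the 6, 1 has conflicting labels. The array titled Irx3-/-;Irx5+/- replicate 4 has a description that names Irx5-/-, while its other labels name Irx3-/-;Irx5+/-. Irx3 read 8.17 on it, above the 7.60 to 7.93 of the other 7 arrays labelled Irx3-/- and inside the 8.14 to 8.25 of the Irx5-/- arrays. The labels do not place the Irx3 probe set relative to the deletion. List means on the array lay both outside and inside the Irx5-/- range. The mean of the endothelial markers described below was 0.41, against -0.51 to -0.15 in Irx5-/- arrays. In the other Irx3-/-;Irx5+/- arrays it was 0.05 to 0.30. That of the cholesterol synthesis genes was -0.10, against 0.10 to 0.21 in Irx5-/- arrays. The sarcomere mean (0.52, against -0.004 to 1.14) and the oxidative phosphorylation mean (0.19, against -0.09 to 0.81) lay inside the Irx5-/- range. Which label is right was not tested. The array enters the spread behind every test below and is 1 of 4 reference arrays in the comparison without Irx3, whose results are given with and without it. Leaving it out kept the count of called probe sets between Irx5-/- and Irx5+/- at 0, and the genes at an unadjusted p under 0.05 then numbered 1118 higher and 847 lower, against 1181 and 942 with it.

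No single gene passed the test. Of 21776 probe sets, 0 (0%) reached a Benjamini-Hochberg adjusted p under 0.05 in limma, and the smallest adjusted p was 0.186. Before adjustment 2368 probe sets had p under 0.05, 1318 higher and 1050 lower in Irx5-/- hearts. Counted once per gene, 1181 genes (5.93%) were higher and 942 (4.73%) lower at an unadjusted p under 0.05. All 3 Irx5-/- arrays lay above all 3 Irx5+/- arrays for 6.71% of genes and below them for 9.52%. These 4 shares are the background against which the counts for gene groups are set. The gene groups were chosen with earlier results of these data known, so their counts are a description and not a test. The median difference over all genes was -0.03, and the 5th and 95th percentiles were -0.33 and 0.49. On average 8846 genes were higher and 11085 lower, so the split of a gene group is set against an uneven split.

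Within the Irx3, Irx5 and Irx6 cluster, all 3 genes read lower in Irx5-/- hearts. Irx5 read 8.19, 8.41 and 8.37 in the Irx5+/- arrays and 7.86, 8.34 and 7.91 in the Irx5-/- arrays, a difference of -0.29 ± 0.19 (SE, adjusted p = 0.584 in limma). Irx5-/- replicate 2 lay inside the range of the reference, and without it the difference was -0.44. The labels do not place the Irx5 probe set relative to the deletion, and one outside it checks nothing about the genotype. Irx3 read 8.43, 8.53 and 8.44 against 8.25, 8.14 and 8.19 (-0.27 ± 0.10). Irx6 read 7.71, 7.92 and 7.91 against 7.55, 7.30 and 7.56 (-0.38 ± 0.15). For Irx3 and Irx6 the groups did not overlap, with unadjusted p = 0.0196 and 0.0271 and adjusted p = 0.392 and 0.418. The cluster on chromosome 13 showed no such pattern: Irx1 lay at -0.05 ± 0.13, Irx2 at 0.02 ± 0.13 and Irx4, a ventricular muscle gene, at 0.38 ± 0.34, each with overlapping groups. Without Irx5+/- replicate 3 and Irx5-/- replicate 2, Irx4 lay at -0.31.

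**Figure D1:**
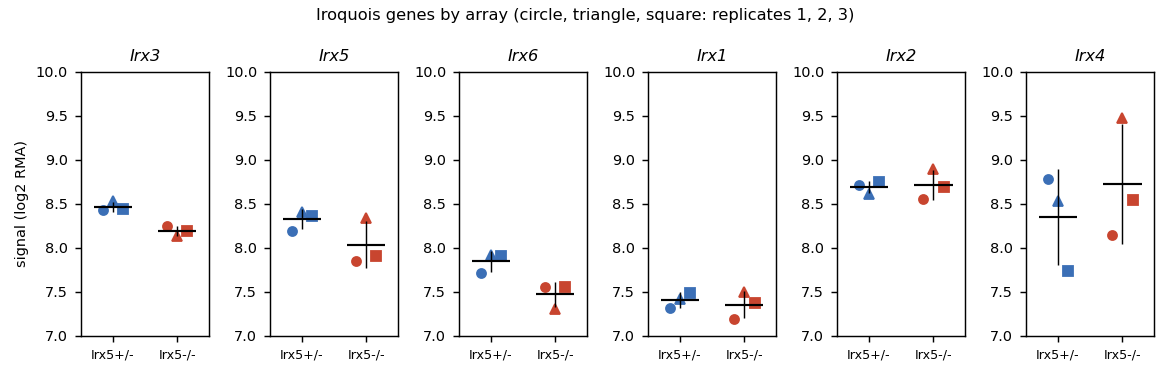
Signal (log2 RMA) of the 6 Iroquois genes in each Irx5+/- array (blue) and each Irx5-/- array (red), with group mean (horizontal line) and SD (vertical line), n = 3 each. For Irx3 and Irx6 all Irx5-/- arrays lie below all Irx5+/- arrays, and for Irx5 replicate 2 of Irx5-/- (8.34) lies within the reference range.

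Genes around that cluster were mixed. Of the 22 measured neighbours, 7 were higher and 15 lower, with a median of -0.14. At an unadjusted p under 0.05, 0 were higher and 2 lower (background 5.93% and 4.73%). The lower ones were Sall1, a zinc finger transcription factor, at -0.92 ± 0.24, and the carboxylesterase gene Ces1d at -0.39 ± 0.14. Ces1d was dim, at 6.05 to 6.66 over the 6 arrays, and without the dimmest 25% of probe sets Sall1 alone was left. Sall1 read 10.16, 10.28 and 10.24 in Irx5+/- and 8.83, 9.88 and 9.23 in Irx5-/- hearts, so the groups did not overlap. Fto, which neighbours Irx3 and holds enhancers that act on it, lay at 0.39 ± 0.24 with overlapping groups.

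Fdft1 had the smallest p of all genes. It encodes squalene synthase, which makes the first product committed to sterols. Its signal was 9.37, 9.32 and 9.61 in the Irx5+/- arrays and 10.20, 10.42 and 10.35 in the Irx5-/- arrays, a difference of 0.89 ± 0.14 (SE), or 1.85-fold (adjusted p = 0.186 in limma). All Irx5-/- arrays were above all Irx5+/- arrays, and a second probe set for the gene gave 1.05 ± 0.19. Klhl23, a member of the kelch-like family, read 8.34, 8.60 and 8.60 against 9.36, 9.8 and 9.25 (0.96 ± 0.16). Extl3, a glycosyltransferase that starts heparan sulfate chains, read 8.53, 9.0 and 8.31 against 9.52, 10.28 and 9.62 (1.19 ± 0.21). Bbs2, a gene of the primary cilium on chromosome 8, read 7.89, 8.15 and 7.85 against 8.71, 8.44 and 8.58 (0.62 ± 0.11). In none of these genes did the groups overlap. The next by p were the metalloprotease gene Amz2 (0.86), Osgep of the tRNA-modifying KEOPS complex (0.59), the prion protein gene Prnp (0.89), the RNA helicase gene Ddx56 (0.97), the collagen prolyl hydroxylase gene P4ha2 (0.66), the small GTPase gene Rhoq (0.64), Siva1 (0.58), Aimp1 of the aminoacyl-tRNA synthetase complex (0.86), the ribosome biogenesis factor gene Eif6 (0.52) and Lrig2 (0.53). Their adjusted p was 0.252, and the arrays of both groups were fully separate in each.

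Among the genes lower in Irx5-/- hearts, Ets1 had the smallest p. It encodes an ETS transcription factor of endothelium and neural crest. Its signal was 10.69, 10.49 and 10.51 in Irx5+/- and 9.79, 9.77 and 9.87 in Irx5-/- hearts, a difference of -0.75 ± 0.13 (adjusted p = 0.239 in limma). Il15, a cytokine gene, read 8.29, 8.35 and 7.32 against 6.52, 6.65 and 6.63 (-1.39 ± 0.28). Rhoj, an endothelial small GTPase gene, read 10.13, 10.20 and 10.25 against 9.01, 8.83 and 9.60 (-1.04 ± 0.23). The 3 genes were separate between the groups in every array. Others were the phosphodiesterase gene Pde7b (-0.75), Ripply3, a repressor that binds T-box factors (-0.69), the sodium channel gene Scn3a (-0.46, on a dim probe set), the mTOR inhibitor gene Deptor (-0.62), the phosphatase gene Inpp5d (-0.78), Sec14l2 (-0.43), the histone deacetylase gene Hdac7 of endothelium (-0.52), the complement gene Cfp (-0.59), Cnih2 (-1.0) and S100a16 (-0.85). Adgb lay at -0.52 ± 0.12, while its other probe set gave -0.12 with overlapping groups. Scn3a read 5.22 to 5.87 and Adgb 4.91 to 5.66 over the 6 arrays, below Alb (6.13 to 6.44) and below Xist in the male samples (6.25 to 6.57), so neither is shown to be above background.

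**Figure D2:**
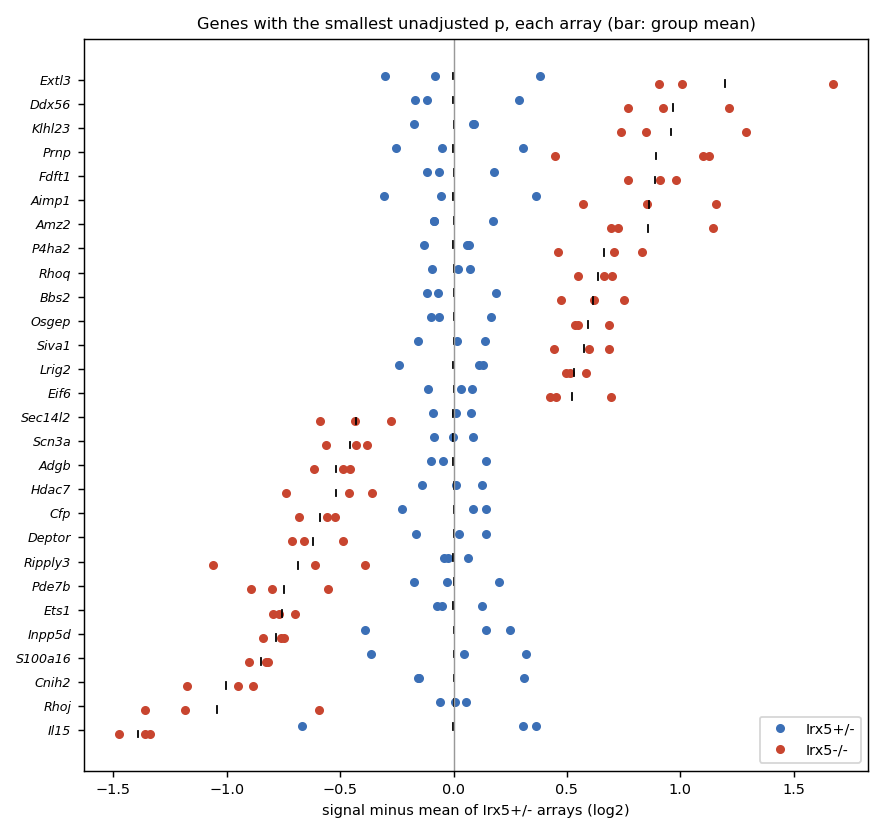
Signal in each array minus the mean of the Irx5+/- arrays (log2) for the 14 higher and 14 lower genes with the smallest unadjusted p, with Irx5+/- arrays in blue, Irx5-/- arrays in red and a bar at each group mean. These genes were chosen by this comparison, so their separation is a description. Il15 shows the widest spread among the Irx5+/- arrays, 7.32 to 8.35.

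Genes of endothelium and endocardium were lower throughout. Of 35 identity and surface genes, 35 lay below 0, with a median of -0.64 against -0.03 over all genes. At an unadjusted p under 0.05, 21 of the 35 were lower and 0 higher, and for 23 all Irx5-/- arrays lay below all Irx5+/- arrays (background 4.73% and 9.52%). The list mean was 0.20, 0.48 and 0.25 in Irx5+/- and -0.51, -0.15 and -0.27 in Irx5-/- arrays, without overlap. None passed over all probe sets. The list was chosen with earlier results of these data known, so its counts are a description. In bulk heart RNA, fewer endothelial cells and less RNA per endothelial cell cannot be told apart.

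The lower genes included markers of endocardium and of vessels. Emcn, the sialomucin endomucin of endocardium and veins, read 11.56, 12.05 and 11.55 in Irx5+/- and 9.57, 10.97 and 10.76 in Irx5-/- arrays (-1.29 ± 0.46). Npr3, a natriuretic peptide receptor of the endocardium, read 12.02, 12.32 and 12.15 against 10.93, 11.44 and 11.23 (-0.96 ± 0.30). Plvap, of fenestrated endothelium, read 10.30, 10.43 and 10.05 against 8.87, 9.67 and 9.34 (-0.97 ± 0.25). Each of these was lower in all 3 Irx5-/- arrays, and Emcn lay at -0.86 without Irx5-/- replicate 1. The junction genes Cdh5 (VE-cadherin) and Pecam1 lay at -0.78 ± 0.24 and -0.74 ± 0.27. The secreted factor gene Cytl1 was at -1.23 ± 0.39, and the receptor gene Gpr182 at -1.03 ± 0.34. At the other end, Vwf, Lyve1 and Robo4 lay between -0.10 and -0.07 with overlapping groups.

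Transcription factors of endothelium were also lower. Of 25, 25 lay below 0 (median -0.43). At an unadjusted p under 0.05, 13 were lower, and for 14 all Irx5-/- arrays lay below all Irx5+/- arrays (background 4.73% and 9.52%). This list too was chosen with earlier results of these data known, so its counts are a description. Sox7, of the SoxF class, read 9.56, 9.49 and 9.86 in Irx5+/- and 8.44, 9.14 and 8.24 in Irx5-/- arrays (-1.03 ± 0.28). Epas1 (HIF-2 alpha) read 10.19, 10.49 and 10.55 against 9.46, 9.72 and 9.61 (-0.82 ± 0.25). Both were lower in all Irx5-/- arrays. The ETS genes Fli1 and Erg lay at -0.61 ± 0.25 and -0.47 ± 0.25, the latter with overlapping groups, Sox18 at -0.50 ± 0.20, Lmo2 at -0.59 ± 0.20, Tal1 at -0.43 ± 0.13 and Gata2 at -0.42 ± 0.14. With Irx5+/- replicate 3 and Irx5-/- replicate 2 both left out, the marker median was -0.80 with 34 of 35 genes lower, and the factor median was -0.40 with 22 of 25 lower. Over single arrays left out, the markers at an unadjusted p under 0.05 ranged from 8 (without Irx5+/- replicate 2) and 10 (without Irx5-/- replicate 1) to 20, and the factors from 7 (without Irx5+/- replicate 2) to 14. The factor count was 8 without Irx5+/- replicate 3, Irx5-/- replicate 1 or Irx5-/- replicate 3. The background moved as well. Over all probe sets, 1984 were at that level without Irx5+/- replicate 2 and 1853 without Irx5+/- replicate 3. There were 1944 without Irx5-/- replicate 1 and 2820 without Irx5-/- replicate 3, against 2368 with every array.

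Promoters of these genes were searched for the core site of ETS factors. The letters AGGAAG were sought on both strands in the 250 bases before each start in the RefSeq promoter table (GRCm38.p6), which holds 24 windows for 21 of the 35 marker genes and 20 windows for 15 of the 25 factor genes. A match was found in 15 marker windows (62.5%) and 5 factor windows (25%), against 29.48% of all 32851 windows. The Iroquois palindrome ACANNTGT, the same on both strands, was found in 0 windows of either list and in 6.31% of all windows. The motifs were counted independently of each other, and overlapping matches were allowed. A match is a run of letters and not a shown site. The windows of Emcn (chr3:137340828-137341077, plus strand) and Flt1 (chr5:147726012-147726261, minus strand) are shown because both genes were lower in every Irx5-/- array and hold a pair of matches each, with the matches in capitals on a 5′ to 3′ sequence in the direction of the gene.
Emcn: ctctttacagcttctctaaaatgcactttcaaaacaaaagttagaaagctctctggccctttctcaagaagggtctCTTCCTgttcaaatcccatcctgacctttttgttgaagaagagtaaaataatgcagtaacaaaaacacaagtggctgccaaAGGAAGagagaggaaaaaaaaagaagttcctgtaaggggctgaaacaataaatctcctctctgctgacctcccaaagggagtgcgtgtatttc
Flt1: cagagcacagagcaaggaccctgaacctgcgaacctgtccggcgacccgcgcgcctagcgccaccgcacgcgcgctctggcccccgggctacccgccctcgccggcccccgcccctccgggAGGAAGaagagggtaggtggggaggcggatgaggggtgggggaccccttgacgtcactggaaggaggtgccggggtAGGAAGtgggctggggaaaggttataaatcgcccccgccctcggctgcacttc
Inpp5d was the only one of the 28 genes with the smallest p, of which 20 have windows, with an Iroquois match. Its window (chr1:87620062-87620311, plus strand) is shown with that match in capitals.
Inpp5d: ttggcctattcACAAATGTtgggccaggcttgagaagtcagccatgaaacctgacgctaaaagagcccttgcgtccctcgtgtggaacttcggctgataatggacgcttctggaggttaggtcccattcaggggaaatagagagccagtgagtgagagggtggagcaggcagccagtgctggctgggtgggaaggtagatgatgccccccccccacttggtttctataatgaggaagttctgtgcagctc

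Of 23 genes of VEGF and angiopoietin signalling, 7 were higher and 16 lower (median -0.16). At an unadjusted p under 0.05, 1 was higher and 4 lower (background 5.93% and 4.73%). The 4 lower ones, Flt1, Kdr, Tek and Tie1, encode receptors of the endothelium and are also members of the marker list above, so they add no count to it. Flt1 (VEGF receptor 1) read 10.27, 10.64 and 10.55 against 9.25, 9.85 and 9.62 (-0.91 ± 0.25), Kdr (VEGF receptor 2) lay at -0.63 ± 0.26, and the angiopoietin receptor genes Tek and Tie1 at -0.81 ± 0.33 and -0.80 ± 0.23, each with separate groups. Of the ligands, Vegfc lay at 0.53 ± 0.21 with separate groups, while Vegfa (0.42 ± 0.34, and -0.36 without the same pair of arrays) and Angpt1 (0.94 ± 0.46) overlapped. In the Notch pathway, which endocardium uses to instruct the muscle beneath it, 0 of 20 genes were higher and 3 lower at an unadjusted p under 0.05, against the same background. The lower ones were the ligand gene Dll1 (-0.57 ± 0.20) and the receptor genes Notch1 (-0.52 ± 0.20) and Notch4 (-0.32 ± 0.12). In the BMP and TGF-beta pathway the co-receptor genes Tgfbr3 (-0.84 ± 0.28) and Eng (-0.64 ± 0.28) and the receptor gene Acvrl1 (-0.33 ± 0.13) were lower at that level and Bmp5 (1.13 ± 0.45) higher, out of 30 genes with a median of 0.04. Eng is also a member of the marker list.

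Of 41 matrix genes, 13 were higher and 28 lower (median -0.17). At an unadjusted p under 0.05, 3 were higher and 6 lower (background 5.93% and 4.73%). Col4a1 and Col4a2, the paired chains of basement membrane collagen IV, lay at -0.51 ± 0.13 and -0.42 ± 0.14. Col4a1 read 9.88, 10.22 and 10.10 in Irx5+/- and 9.38, 9.64 and 9.67 in Irx5-/- arrays, without overlap. Col18a1 (-0.40 ± 0.14) and fibronectin Fn1 (-0.46 ± 0.20) were also lower, as was the laminin receptor gene Itga6 (-0.75 ± 0.23) of the trabecular list. Without Irx5-/- replicate 2, Col18a1 lay at -0.24. On the other side stood tenascin C, Tnc (1.03 ± 0.40, and 0.66 without Irx5-/- replicate 1), and Nid2 (0.36 ± 0.14), which is also a basement membrane component. Cav1, which builds caveolae, lay at -0.59 ± 0.20, and Cavin2 at -0.43 ± 0.18. The semaphorin receptor gene Plxnd1 of endothelium lay at -0.83 ± 0.29 and the semaphorin gene Sema3a at -0.79 ± 0.30 (-0.52 without Irx5+/- replicate 3), both with separate groups.

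**Figure D3:**
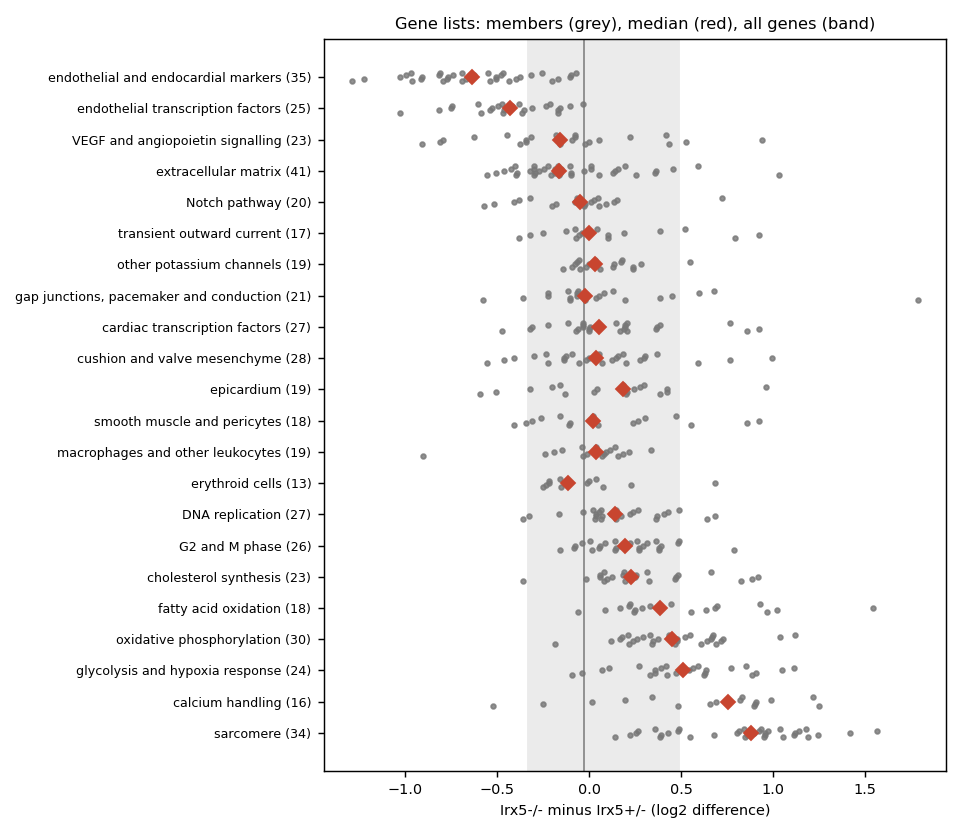
Log2 difference (Irx5-/- minus Irx5+/-) of each measured member of 22 gene lists (grey points, number of genes in brackets) and the list median (red diamond), with the 5th to 95th percentile of all genes as a band and their median of -0.03 as a line. Endothelial markers (median -0.64) and sarcomere genes (0.88) lie at opposite ends. No gene shown passed adjustment.

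Enzymes of cholesterol synthesis were mostly higher. The pathway makes sterols from acetyl-CoA and is switched on by the SREBP factors when sterols are low. Of 23 genes, 21 were higher and 2 lower, with a median of 0.23. At an unadjusted p under 0.05, 8 were higher and 1 lower, and for 10 all Irx5-/- arrays lay above all Irx5+/- arrays (background 5.93% and 6.71%). The list mean was -0.11, -0.13 and -0.20 in Irx5+/- and 0.13, 0.21 and 0.10 in Irx5-/- arrays. Fdft1, described above, is one of the list.

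The higher enzymes span the pathway. Hmgcs1, which makes its entry compound HMG-CoA, read 10.23, 10.26 and 10.27 against 10.95, 10.75 and 10.46 (0.47 ± 0.18). Lss, which closes the rings into lanosterol, read 7.16, 7.24 and 7.36 against 7.82, 7.51 and 7.89 (0.49 ± 0.15). Sc5d, a desaturase near the end, read 8.46, 8.72 and 8.27 against 9.38, 9.31 and 9.25 (0.83 ± 0.20). All were higher in each Irx5-/- array, as were Fdps (0.47 ± 0.17), Mvd (0.23 ± 0.09), the sterol reductase gene Hsd17b7 (0.92 ± 0.36) and the sterol carrier gene Stard4 (0.67 ± 0.17). Mevalonate kinase, Mvk, went against them at -0.36 ± 0.09, also with separate groups. The regulators Srebf1, Srebf2 and Scap lay between 0.06 and 0.08. Without Irx5+/- replicate 3 and Irx5-/- replicate 2, the median was 0.11 with 17 of 23 genes higher, and 7 were higher at an unadjusted p under 0.05. Without Irx5-/- replicate 1 that number was 5. Over all probe sets, 1592 were at that level without both arrays and 1944 without Irx5-/- replicate 1. With every array there were 2368, so the background moved as well.

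A sterol response letter pattern, TCACNCCAC on either strand, was present in 1 of 27 promoter windows of 19 of these genes (3.7%), against 1.05% of all windows. That window, of Hmgcs1 (chr13:119690101-119690350, plus strand), is shown with the match in capitals because it is the one of the list that holds it.
Hmgcs1: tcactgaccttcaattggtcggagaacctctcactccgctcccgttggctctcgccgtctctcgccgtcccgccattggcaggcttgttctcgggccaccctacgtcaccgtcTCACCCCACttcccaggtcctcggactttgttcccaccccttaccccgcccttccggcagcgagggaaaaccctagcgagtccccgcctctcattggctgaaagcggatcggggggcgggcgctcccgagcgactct

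Genes of the contractile apparatus averaged higher, but the groups overlapped and the size of the difference depended on single arrays. Of 34 sarcomere genes, 34 lay above 0 with a median of 0.88, and 12 had an unadjusted p under 0.05 (background 5.93% higher). In 0 of the 34 were the Irx5-/- arrays all above the Irx5+/- arrays. Myoz2, a Z-disc gene, read 10.35, 8.74 and 7.54 in Irx5+/- and 9.88, 11.84 and 9.60 in Irx5-/- arrays (1.57 ± 0.66). Actn2, the Z-disc crosslinker alpha-actinin, read 11.34, 10.45 and 8.68 against 11.08, 12.61 and 11.05 (1.42 ± 0.60). In both genes Irx5+/- replicate 1 lay among the Irx5-/- arrays. Without Irx5+/- replicate 3 they lay at 0.90 and 0.68, and without Irx5-/- replicate 2 at 0.87 and 0.91. The median was 0.33 without Irx5+/- replicate 3, with 0 genes at an unadjusted p under 0.05, and 0.50 without Irx5-/- replicate 2, also with 0. With both left out it was 0.00, with 17 genes higher and 17 lower. Without Irx5+/- replicate 1 it was 1.30, and 27 of 34 genes had an unadjusted p under 0.05. That number was 7 without Irx5+/- replicate 2 and 21 without Irx5-/- replicate 3. The background moved as well. Over all probe sets, 2669, 1984 and 2820 were at that level in these settings, against 2368 with every array. Without Irx5+/- replicate 3 there were 1853, and without Irx5-/- replicate 2 there were 1626. When the 6 arrays compared were fitted alone, 2 of 34 had an unadjusted p under 0.05 (5.88%, against 4.67% of all genes in that fit).

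Energy metabolism and calcium handling followed the sarcomere list across the arrays. Of 30 oxidative phosphorylation genes 29 were higher (median 0.45) and 9 had an unadjusted p under 0.05 (background 5.93% higher). The list mean was 0.20, -0.31 and -0.57 in Irx5+/- and -0.09, 0.81 and -0.03 in Irx5-/- arrays, highest and lowest in the same arrays as the sarcomere mean. With both arrays left out the median was 0.01, with 16 of 30 higher, and 0 had an unadjusted p under 0.05. With 1 array left out, that number ran from 0 (without either of these arrays) to 18 (without Irx5+/- replicate 1), and it was 15 without Irx5-/- replicate 1 or 3. It was 3 with the 6 arrays fitted alone. The background moved as well. Over all probe sets, 1853 were at that level without Irx5+/- replicate 3 and 1626 without Irx5-/- replicate 2. There were 2669 without Irx5+/- replicate 1, 1944 without Irx5-/- replicate 1 and 2820 without Irx5-/- replicate 3, against 2368 with every array. Of 16 calcium handling genes 14 were higher (median 0.76, and -0.02 without both arrays), among them the calcium release channel Ryr2 at 1.22 ± 0.51 (0.73 without Irx5+/- replicate 3 and 0.65 without Irx5-/- replicate 2). Of 24 genes of glycolysis and the hypoxia response 22 were higher (median 0.51, and 0.05 without both arrays). Egln3, an oxygen sensor, read 7.25, 8.0 and 7.71 against 8.96, 9.07 and 8.09 (1.05 ± 0.28), with separate groups. Of 18 genes of fatty acid use 17 were higher (median 0.39, and 0.03 without both arrays). The fatty acid transporter Cd36 read 7.98, 8.04 and 7.33 against 8.53, 10.50 and 8.95 (1.55 ± 0.39), again with separate groups. Its value in Irx5-/- replicate 2 stood above the rest, and without that array the difference was 0.96.

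**Figure D4:**
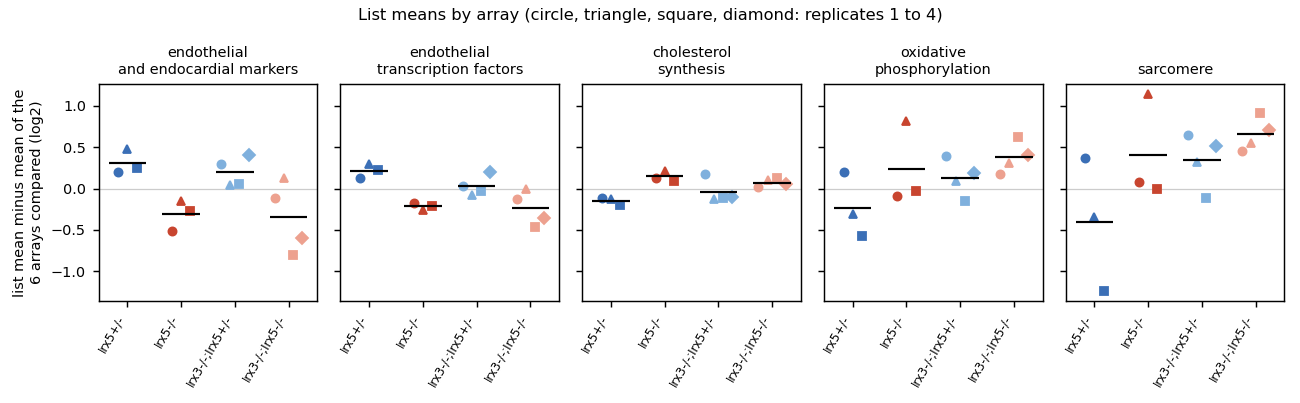
Mean of 5 gene lists in each of the 14 arrays, relative to the mean of the 6 arrays compared (log2), for Irx5+/- and Irx5-/- (dark) and both groups without Irx3 (light, replicate 4 of Irx3-/-;Irx5+/- being the array of conflicting labels), with the group mean as a line. Irx5-/- arrays lie below Irx5+/- arrays for both endothelial lists and above them for cholesterol synthesis. For the sarcomere list Irx5+/- replicate 3 (-1.24) and Irx5-/- replicate 2 (1.14) lie apart from the rest of their groups.

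The largest differences were chosen by size among genes at an unadjusted p under 0.05. On the higher side were Alpk2, a kinase gene of heart muscle, at 1.88 ± 0.65, Gca at 1.71 ± 0.55, Ociad2 at 1.47 ± 0.43 and Spryd4 at 1.43 ± 0.35, beside Gja5, Cd36, Myoz2 and Actn2. Alpk2 read 9.38, 8.38 and 6.56 against 10.31, 10.68 and 8.96, with overlap, and its difference was 1.10 without Irx5+/- replicate 3. Gca read 6.43, 5.94 and 5.17 against 6.70, 9.07 and 6.90, and its difference was 0.96 without Irx5-/- replicate 2. Ociad2 differed from the muscle genes in being even within both groups compared, at 8.35, 8.30 and 8.42 against 10.03, 9.68 and 9.76. In the groups without Irx3 it varied, with an SD of 0.73 in Irx3-/-;Irx5+/- and 0.79 in Irx3-/-;Irx5-/- arrays. On the lower side, the transcription factor gene Ebf1 read 10.75, 10.32 and 10.26 against 8.76, 9.18 and 9.14 (-1.41 ± 0.37). Tmem100, an endothelial gene downstream of BMP signalling, read 8.86, 9.19 and 8.49 against 6.99, 7.77 and 7.99 (-1.27 ± 0.34). Neither overlapped. Slc22a23 (-1.21 ± 0.34), Gbp8 (-1.26 ± 0.39) and, as above, Emcn, Cytl1 and Il15 also belonged to this group. Dennd4a gave -1.64 ± 0.57 from 1 of its 9 probe sets, and the other 8 ran from -0.47 to 0.56, all with overlapping groups.

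Ion channel genes had few differences near the threshold. For the transient outward current, 9 of 17 genes were higher and 8 lower, with a median of 0.00. Kcnd2 read 7.99, 8.0 and 7.91 in Irx5+/- and 7.86, 8.36 and 7.68 in Irx5-/- arrays. The group means were equal to 2 decimals (0.00 ± 0.20), with a 95% interval from -0.43 to 0.43. Kcnd3, the other main subunit, read 7.63, 7.87 and 7.67 against 7.42, 7.46 and 7.53 (-0.25 ± 0.11), without overlap. Smyd1 lay at 0.93 ± 0.39 and varied with the muscle genes, at 9.60, 8.46 and 7.58 against 9.23, 10.05 and 9.14. Its difference was 0.44 without Irx5+/- replicate 3 and 1.45 without Irx5+/- replicate 1. Of 19 other potassium channel genes, 0 had an unadjusted p under 0.05 in either direction. Among 15 sodium and calcium channel genes, the L-type channel Cacna1c lay at 0.78 ± 0.29, with a range of 0.42 (without Irx5-/- replicate 2) to 0.99 (without Irx5+/- replicate 1) over single arrays left out. Scn1a lay at -0.36 ± 0.14, but read only 5.22 to 5.82 over the 6 arrays and was not in the test without the dimmest 25% of probe sets.

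In the conduction list 10 of 21 genes were higher and 11 lower, and Gja5 alone had an unadjusted p under 0.05. Gja5 read 9.99, 8.31 and 7.38 in Irx5+/- and 9.99, 10.97 and 10.09 in Irx5-/- arrays, a difference of 1.79 ± 0.51 (adjusted p = 0.299 in limma). The Irx5+/- arrays differed by more among themselves than the group means did, and Irx5+/- replicate 1 matched Irx5-/- replicate 1. Gja1 lay at 0.60 ± 0.32 with overlapping groups, highest in Irx5-/- replicate 2 (12.08).

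Of 27 cardiac transcription factors, 15 were higher and 12 lower (median 0.05). At an unadjusted p under 0.05, 3 were higher and 1 lower (background 5.93% and 4.73%), or 1 and 1 with the 6 arrays fitted alone. Tbx20, a T-box factor of muscle and endocardium, read 10.42, 9.90 and 10.18 against 10.99, 11.06 and 10.74 (0.77 ± 0.19), with separate groups. The others were Myocd (0.86 ± 0.33, and 0.44 without Irx5+/- replicate 3), a coactivator of smooth and heart muscle genes, Smyd1, and on the lower side Nr2f2 (-0.47 ± 0.20), a factor of atria and veins. Nr2f2 is also a member of the endothelial transcription factor list. The trabecular list counted 10 higher and 10 lower, with 3 higher and 4 lower at an unadjusted p under 0.05 (background 5.93% and 4.73%). Its highest value was that of Gja5, also a member of the conduction list. The neuregulin receptor Erbb4 lay at 0.75 ± 0.28 and its ligand Nrg1, made by the endocardium, at -0.27 ± 0.17. Of 14 compact layer genes 11 were higher, with Tbx20 the 1 at an unadjusted p under 0.05.

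Genes of cell division tended to be higher. Of 26 genes of the G2 and M phases 22 were higher (median 0.20). At an unadjusted p under 0.05, 4 were higher and 0 lower (background 5.93% and 4.73%). Kif2c, a mitotic kinesin, read 8.30, 8.92 and 8.77 against 9.34, 9.42 and 9.61 (0.79 ± 0.20), and the checkpoint kinase Bub1 read 9.79, 9.49 and 9.36 against 9.95, 10.18 and 9.98 (0.49 ± 0.12). Neither gene overlapped between the groups. Of 27 DNA replication genes 23 were higher (median 0.14), with 5 higher and 1 lower at that level. Rrm1, of ribonucleotide reductase, was even within groups, at 10.46, 10.48 and 10.49 against 10.95, 11.02 and 10.93 (0.49 ± 0.13). Fen1, a flap nuclease, was the lower one (-0.36 ± 0.16). With both muscle-extreme arrays left out, the G2 and M median was 0.16 and the replication median 0.12.

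Markers of the other cell types were counted in the same way, and their part in the results above was not tested. In the epicardial list 13 of 19 genes were higher and 6 lower, and the list mean was 0.58, -0.71 and 0.28 in Irx5-/- replicates 1, 2 and 3 against -0.21, -0.13 and 0.19 in Irx5+/-. Cushion and valve mesenchyme (15 higher and 13 lower of 28) was also lowest in Irx5-/- replicate 2, at -0.49, against 0.34 and 0.25 in replicates 1 and 3 of that group. Irx5-/- replicate 2, the array with the most sarcomere signal, thus had the least of both. Of 18 smooth muscle and pericyte genes 11 were higher and 7 lower, with 3 higher and 1 lower at an unadjusted p under 0.05. The cushion list had 2 higher and 1 lower at that level, and the epicardial list 1 and 1 (background 5.93% and 4.73%). Of 13 erythroid genes 0 had an unadjusted p under 0.05, and the list mean ran from -0.06 to 0.04 over the 6 arrays. Of 19 macrophage and leukocyte genes 0 did, with list means from -0.30 to 0.36. The counts at that level were 0 of 16 for lung and foregut, 0 of 16 for neurons and 1 of 13, lower, for liver (0 of 8 without the dimmest 25% of probe sets). The neural crest gene Sox10 lay at -0.25 ± 0.10, 1 of 3 lower genes among 22 of the outflow tract and neural crest.

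Hearts without Irx3 gave a second comparison for the same loss, with no array in common: Irx3-/-;Irx5-/- (4 arrays) minus Irx3-/-;Irx5+/- (4 arrays). The reference includes replicate 4, the array of conflicting labels. Irx3 read there as in Irx5-/- hearts, while the endothelial marker mean (0.41) lay above the -0.51 to -0.15 of those hearts. The sarcomere mean (0.52) lay inside their range of -0.004 to 1.14. With it, 5 of 21776 probe sets (0.023%) passed in limma (adjusted p = 0.0187 each), and without it 0 did, with 1508 at an unadjusted p under 0.05 and a smallest adjusted p of 0.125. All 5 belong to Hmcn1, which encodes hemicentin 1, a large matrix protein, and which is named here after its values were seen. They lay at -1.25 to -0.65 without Irx3 and at -0.76 to -0.25 with it.

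Of the 2123 genes with an unadjusted p under 0.05 with Irx3 present, 1667 (78.5%) had the same sign without Irx3, against 65.9% of all genes, and the Pearson correlation of both differences across genes was 0.39. Without replicate 4 these values were 1661 (78.2%), 64.9% and 0.37. Genes are not independent replicates, so this is a description. The median of the endothelial markers was -0.53, and -0.48 without replicate 4. Their list mean was 0.30, 0.05, 0.06 and 0.41 in Irx3-/-;Irx5+/- arrays and -0.11, 0.13, -0.81 and -0.60 in Irx3-/-;Irx5-/- arrays, with overlap through replicate 2 of the latter. Among single markers, Npr3 lay at -1.0 (-0.92 without replicate 4), Emcn at -0.97 (-0.89), Cytl1 at -1.47 (-1.55) and Pecam1 at -0.83 (-0.75). The median of endothelial transcription factors was -0.28, and -0.18 without replicate 4. The medians were 0.09 for cholesterol synthesis, 0.28 for the sarcomere and 0.45 for G2 and M phase genes, and 0.09, 0.34 and 0.45 without that array.

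For the genes with the smallest p, chosen where Irx3 was present, values nearer 0 are no sign of a difference between both settings. Without Irx3, Ets1 lay at -0.09 ± 0.11 (SE), Extl3 at 0.14, Bbs2 at -0.01, Amz2 at 0.08, Rhoq at -0.01 and Il15 at -0.09, while Fdft1 lay at 0.48, P4ha2 at 0.42, Pde7b at -0.42 and Rhoj at -0.63. With replicate 4 left out, Ets1 lay at -0.03, Extl3 at 0.16, Bbs2 at 0.04, Amz2 at 0.09, Rhoq at 0.01 and Il15 at -0.03, and Fdft1 at 0.45, P4ha2 at 0.44, Pde7b at -0.40 and Rhoj at -0.66. Means in all 4 groups show where these genes stood. Ets1 averaged 10.56 in Irx5+/-, 9.81 in Irx5-/-, 10.09 in Irx3-/-;Irx5+/- (10.03 without replicate 4) and 10.01 in Irx3-/-;Irx5-/- hearts. Amz2 averaged 8.89, 9.75, 9.65 (9.64 without replicate 4) and 9.73 in that order. In both genes the mean of the Irx5+/- hearts lay apart from the means of the other 3 groups. Both were chosen by a comparison that uses the Irx5+/- mean, so this is a description. Other genes of that choice differed: Rhoj averaged 10.19, 9.15, 9.88 and 9.25 in the same order, and P4ha2 9.20, 9.87, 9.43 and 9.85.

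The difference between both effects (the interaction) passed for 0 of 21776 probe sets (0%) with and without replicate 4, and 890 and 786 had an unadjusted p under 0.05. Named genes with the smallest interaction p were Scn3a (0.57 ± 0.13), Gabra4 (-1.38), Bach1 (0.66), Atraid (-0.81), Lrig2 (-0.61) and Tacc3 (0.64). Without replicate 4 they lay at 0.59, -1.42, 0.66, -0.85, -0.59 and 0.68. Scn3a is the dim gene described above. Gabra4, a GABA receptor subunit gene, lay at 0.76 with (0.49 without Irx5-/- replicate 1) and at -0.62 without Irx3 (-0.66 without replicate 4).

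**Figure D5:**
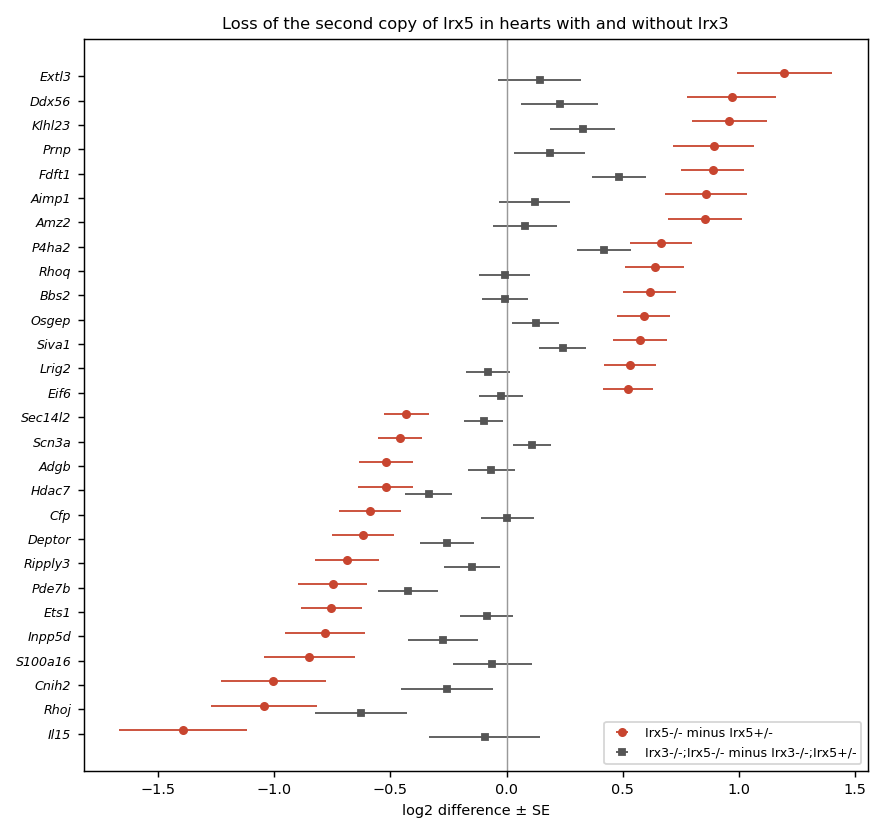
Log2 difference (no working Irx5 minus 1 working copy) with its SE for the 28 genes with the smallest p, in hearts with Irx3 (red circles, 3 against 3 arrays) and without Irx3 (grey squares, 4 against 4 arrays, the array of conflicting labels included). The genes were chosen on the red values. Fdft1 (0.89 and 0.48) and Rhoj (-1.04 and -0.63) keep their sign, and Ets1 (-0.75 and -0.09) lies near 0 without Irx3.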

How the data were processed

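The 14 samples of heart tissue were measured on Affymetrix Mouse Gene 1.0 ST arrays. Per the file headers, the authors deposited log2 signals made with RMA in the R package affy over all arrays together, and no versions are given in the sources used here. Per the labels' protocols, RNA was isolated with PicoPure and amplified from 1 ng with NuGEN kits, and their number of arrays limits the precision. Groups came from the titles. The description of Irx3-/-;Irx5+/- replicate 4 names Irx5-/-, and Irx3 read 8.17 there against 7.60 to 7.93 in the other 7 arrays labelled Irx3-/- and 8.14 to 8.25 in Irx5-/-. The endothelial marker mean was 0.41 on that array, against -0.51 to -0.15 in Irx5-/-, and the sarcomere mean 0.52, against -0.004 to 1.14. The array was kept under its title, and results were recomputed without it.

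A means model over all 14 arrays was fitted with limma 3.58.1 in R 4.3.3, with Benjamini-Hochberg adjustment over the 21776 probe sets with 1 gene symbol. Of these, 21685 matched the reference gene table by gene ID. A gene was represented by its probe set with the highest mean, and 998 genes had several probe sets. The fit was tested on simulated data. Members and gene lists were chosen with earlier results of these data known. Genes named were the 6 Iroquois genes, the 14 per direction with the smallest p and the 8 with the largest difference at an unadjusted p under 0.05 (predicted, receptor-segment and small RNA genes left out), list members, neighbours of the cluster (10 on either side) and 6 genes of the interaction. Actc1, Tnnt2, Alb, Sftpc and Xist were read as checks. Listed genes without such a probe set were not analysed here. Promoter windows came from RefSeq (GRCm38.p6).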

Additional observations from a re-analysis of the deposited data

Results flagged for a closer look

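In groups of 4 arrays, 1 array was set against the other 3 by the ratio of its gap to the group's range against Dixon's critical value, over 186 group values. Chance puts about 1 in 20 groups past it, and 10 were past it here. All lie in the groups without Irx3, since groups of 3 arrays were not examined. Among genes, Lrig2 read 7.96 in Irx3-/-;Irx5-/- replicate 2 against 8.14 to 8.16 in the other arrays of its group. Osgep read 9.79 in Irx3-/-;Irx5-/- replicate 4 against 9.44 to 9.49. Deptor read 7.21 in Irx3-/-;Irx5-/- replicate 1 against 6.93 to 6.96. Cfp read 8.36 in Irx3-/-;Irx5+/- replicate 3 against 8.20 to 8.23.

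Among list means (log2, relative to the 6 arrays of hearts with Irx3), the transient outward current list lay at 0.19 in Irx3-/-;Irx5-/- replicate 3 against -0.11 to -0.06. Smooth muscle and pericyte genes lay at -0.22 in Irx3-/-;Irx5+/- replicate 4, the array whose labels conflict, against -0.03 to -0.02. Heparan sulfate enzymes lay at 0.11 in Irx3-/-;Irx5+/- replicate 3 against -0.10 to -0.09, and at -0.23 in Irx3-/-;Irx5-/- replicate 3 against -0.10 to -0.07. Cholesterol synthesis lay at 0.18 in Irx3-/-;Irx5+/- replicate 1 against -0.13 to -0.10. Macrophage and leukocyte genes lay at -0.24 in Irx3-/-;Irx5-/- replicate 4 against -0.04 to -0.01.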

How the results depend on the processing

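The count of probe sets called between Irx5-/- and Irx5+/- was 0 under every alternative run except 3 that left out 1 array: Serpinb6a (0.92 ± 0.11, limma adjusted p = 0.0466) without Irx5+/- replicate 1, Ptchd1 (-1.75 ± 0.19, 0.0124) without Irx5+/- replicate 2 and Zfp418 (1.39 ± 0.17, 0.0476) without Irx5-/- replicate 2. These 3 genes are named after their values were seen. So the range over single arrays left out was 0 to 1. The interaction gave 0 in each alternative fitted. The 5 probe sets called between the hearts without Irx3 became 0 without Irx3-/-;Irx5+/- replicate 4, 0 with the replicate block, 1 with 1 probe set per gene, 3 with array medians subtracted, 8 with an intensity trend and 11 with array weights, and 5 to 7 over single arrays of the other groups left out; these settings were added for this count after seeing the data. Probe sets at an unadjusted p under 0.05 numbered 1592 to 2994, against 2368. The replicate number as a block gave 0 called and 2096 at an unadjusted p under 0.05. Deviations of same-numbered arrays correlated at -0.10, -0.004 and 0.19, so the numbers were not used as pairs. With 3 arrays a group, genes of small difference and wide spread cannot be resolved.

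The endothelial marker median ranged from -0.75 to -0.53 over single arrays left out. The sarcomere median ranged from 0.33 to 1.30, the oxidative phosphorylation median from 0.18 to 0.61 and the cholesterol median from 0.19 to 0.32. With a term for the sarcomere mean of the array, the sarcomere median was -0.0058, as that term's construction implies, and the oxidative phosphorylation median was -0.0076. Without both arrays at the ends of the sarcomere range, an alternative chosen after seeing the data, the sarcomere, oxidative phosphorylation and cholesterol medians were 0.0019, 0.014 and 0.11. Both arrays were picked on the sarcomere mean, so a smaller sarcomere difference was built in. The samples left were female in Irx5+/- and male in Irx5-/-, so genotype and sex cannot be told apart there.

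Of 2370 alternative values for named genes, 26 turned sign, none of them in a gene at an unadjusted p under 0.05. With the sarcomere term, Actc1 lay at -0.0254, Tnnt2 at -0.0961, Irx2 at -0.065, Irx4 at -0.23, Kcnd2 at -0.20 and Vegfa at -0.26, and with array weights Kcnd2 lay at -0.0951. Without both arrays, Actc1 lay at -0.0258, Tnnt2 at -0.1004, Gja1 at -0.0107, Irx2 at -0.0426, Irx4 at -0.31, Kcnd2 at -0.23 and Vegfa at -0.36. Over single arrays left out, Irx1 ranged from -0.13 to 0.0281, Irx2 from -0.0712 to 0.0981, Irx4 from -0.0006 to 0.66, Kcnd2 from -0.20 to 0.14, Robo4 from -0.18 to 0.13, Vwf from -0.37 to 0.0949, Lyve1 from -0.22 to 0.075, Srebf1 from -0.001 to 0.11 and Vegfa from -0.0348 to 0.70. The cause was not tested.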

Other observations

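Heat shock and matrix-modifying genes add groups not described above. Of 17 heat shock proteins 14 were higher in Irx5-/- hearts (median 0.22). At an unadjusted p under 0.05, 6 were higher and 0 lower (background 5.93% and 4.73%, for all lists of this paragraph). The list mean was 0.10, -0.22 and -0.47 in Irx5+/- and 0.01, 0.56 and 0.02 in Irx5-/- arrays. The median was 0.04 without Irx5+/- replicate 3 and Irx5-/- replicate 2. With the 6 arrays compared fitted alone, 2 of the 17 (11.8%) were higher at that level, against 4.67% of all genes. Of 21 heparan sulfate enzymes 9 were higher and 12 lower, with 3 higher and 0 lower at that level. Of 29 Wnt pathway genes 15 were higher and 14 lower, with 1 higher and 2 lower. Of 18 cytosolic ribosomal protein genes 14 were higher, with a median of 0.08 and 1 at an unadjusted p under 0.05, or 0 with the 6 arrays fitted alone.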
